A study of Mus musculus with 9 samples.

Results

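The 9 genes described here act upstream in bone morphogenetic protein (BMP) signalling and were followed across whole mouse skin of 4 genotypes. They are the ligands Bmp2, Bmp4 and Bmp7, the receptors Bmpr1a and Bmpr2, the signal carriers Smad1 and Smad4, and the secreted antagonists Nog and Grem1. They were chosen by name, as probe sets annotated to only that gene, which gave 18 of the 20380 probe sets that name 1 gene, and 9 of 12393 genes. The skins came from 3 transgenic lines, labelled L60, L84 and LA (2 RNA pools each), and from control mice labelled LC (3 pools). Each pool was read on its own Affymetrix array. All mice were 30 days old and of mixed C57BL, DBA and FVB background. The series title concerns constitutively active Akt, a growth factor kinase. The labels used here give neither the promoter that drives a transgene, nor how the lines differ, nor how many mice a pool held. Nothing says that the pools are independent litters, so p-values measure the spread between these pools, which may be partly technical.

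BMPs are secreted proteins that bind a paired type I and type II receptor on the cell surface. The type I receptor then phosphorylates Smad1 and its relatives, which enter the nucleus with the shared partner Smad4 and act on target genes. Antagonists such as noggin and gremlin bind the ligands outside the cell and keep them from the receptors. In skin this pathway is known for holding hair follicle stem cells at rest and for driving hair shaft differentiation, and noggin for releasing follicles into growth.

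The deposited values are scores, standardised for each probe set to a mean of 0 and an SD of 1 over the 9 arrays. A score carries no expression level and no fold, so presence of skin markers could not be checked by level, and genes cannot be ranked by abundance. A gene's score is the mean of its probe sets, and every difference below is a line minus LC, in SDs of a probe set over the arrays. These 3 arrays stood apart on 18S ribosomal RNA probe sets: L60 1 (2.09), L84 1 (0.339) and LC 1 (1.13), against -0.642 to -0.528 on the other arrays. Scores were spread most widely on L84 1 and LA 2 (SDs of 1.2 and 1.31 over all probe sets). Across all genes the correlation between arrays of a genotype was -0.0228 for L60, -0.296 for L84 and 0.229 for LA, and for the LC pairs 0.153, 0.103 and 0.604. Xist, the RNA of the inactive X chromosome in female cells, scored low on replicate 1 of every genotype (-0.9 in L60, -1.06 in L84, -0.822 in LA and -0.915 in LC), against 0.077 to 1.48 on the other arrays. The Y-linked gene Eif2s3y was higher on replicate 1 in L60 (1.08 against -1.97) and L84 (1.35 against -0.618). It was higher there in LC too (0.803 against -0.167 and -0.134), but the LA arrays were alike (-0.157 and -0.188). Kdm5d and Uty, also Y-linked, were higher on replicate 1 in L60, L84 and LC and not in LA. The labels give no sex, and the part of sex in the differences below was not tested. Values within replicate 1 and within the other replicates are therefore given beside the leading genes. Akt1 differed from LC by 0.0947 ± 0.594 (SE) in L60, 1.22 ± 0.594 in L84 and -0.617 ± 0.594 in LA, none past the test.

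None of the 9 genes passed the test in any comparison. That test was limma's linear model over all 9 arrays, and a gene counted as called where its p, adjusted by Benjamini-Hochberg across all 12393 genes, was under 0.05. Members called in L60, L84 and LA against LC numbered 0, 0 and 0, where 0%, 0.565% and 1.8% of all genes were called. At an unadjusted p under 0.05 the members numbered 0 in L60, 3 in L84 and 3 in LA, against 4.72%, 12.2% and 20.8% of all genes. Line arrays all lay on 1 side of the LC arrays for 2 members in L60, 3 in L84 and 7 in LA, against 25.1%, 28.5% and 48.8% of all genes. Moderated variance called 0 of all 12393 genes in every comparison, so its count says nothing about the members. The median difference of the 9 genes was 0.067 in L60, -0.115 in L84 and -0.889 in LA. Over all genes it was 0.0777, 0.00308 and 0.247.

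**Figure D1:**
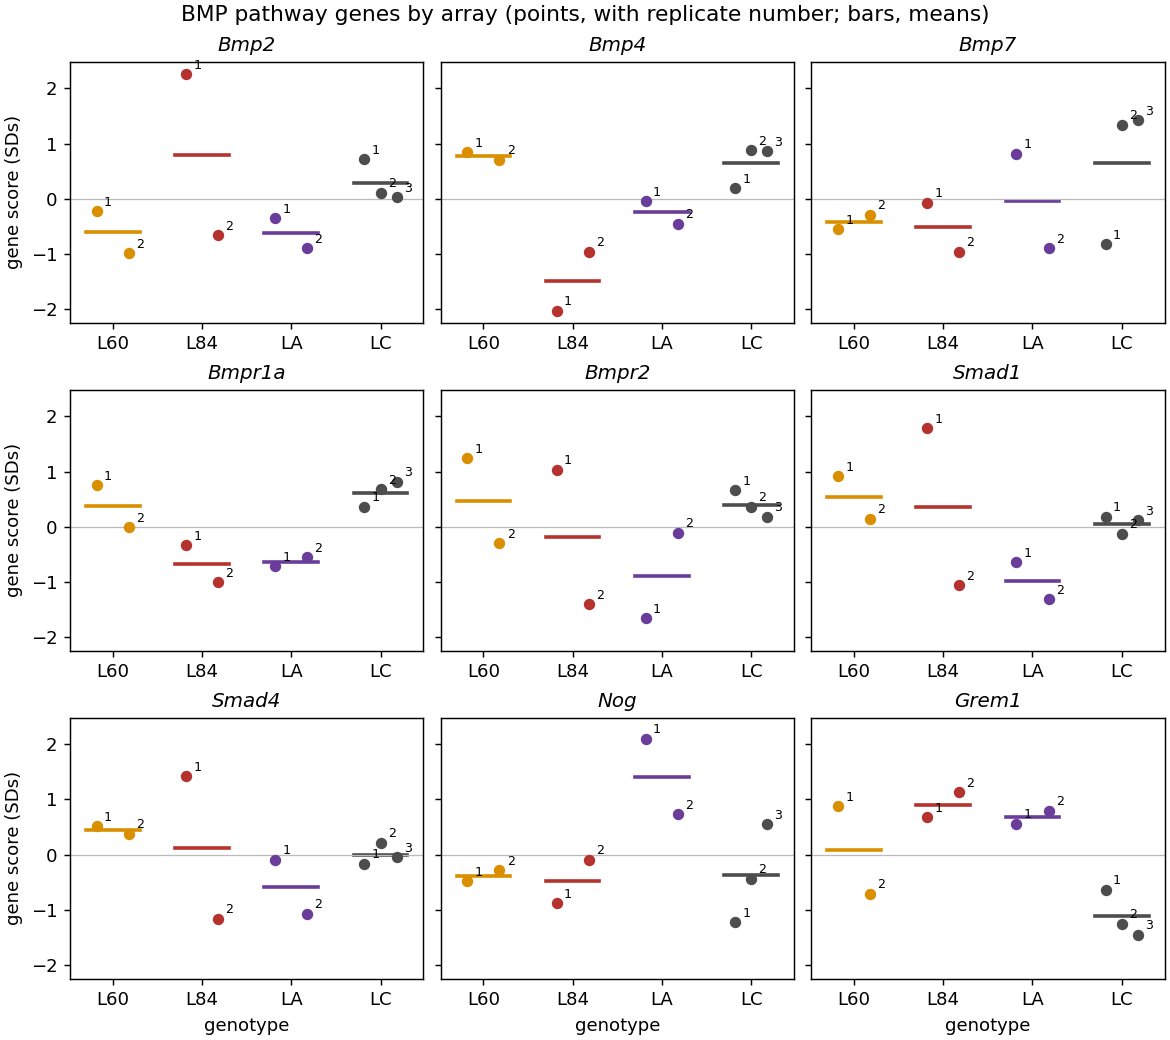
Gene score in SDs (vertical axis) of each array, by genotype (horizontal axis), for the 9 genes. Points are arrays with their replicate number and bars are genotype means. Bmp4 and Bmpr1a lie below LC on all L84 and LA arrays, and Grem1 lies above LC there.

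The genes that stood out most were Bmp4, Bmpr1a and Grem1. They had the smallest p among these genes in an F test of any difference between genotypes (adjusted p = 0.19, 0.252 and 0.311). It was an ordinary F test on limma's linear model, without moderated variance. That test called 91 of 12393 genes. Bmp4 and Bmpr1a scored below every control array on both arrays of L84 and of LA, and Grem1 above. RefSeq gives promoters for 5 of the 9 genes, and those of these 3 are shown because their genes carry the pattern. Each window runs from 250 bases before to 50 bases after the gene's start, on the gene's strand, in GRCm38.p6. They lie at chr14:46390620-46390919 (Bmp4), chr14:34502497-34502796 (Bmpr1a) and chr2:113758599-113758898 (Grem1), all on the minus strand. Capitals mark matches to 4 short motifs searched on both strands: the FOXO motif GTAAACA, the GC-rich Smad motif GGCGCC, the Smad box CAGAC and the TCF/LEF motif CTTTGA.
Bmp4: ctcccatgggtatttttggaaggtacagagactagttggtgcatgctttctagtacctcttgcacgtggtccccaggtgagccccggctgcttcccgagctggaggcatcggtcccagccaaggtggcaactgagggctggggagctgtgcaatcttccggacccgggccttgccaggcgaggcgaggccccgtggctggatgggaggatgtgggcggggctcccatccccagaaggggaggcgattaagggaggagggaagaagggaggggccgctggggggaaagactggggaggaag
Bmpr1a: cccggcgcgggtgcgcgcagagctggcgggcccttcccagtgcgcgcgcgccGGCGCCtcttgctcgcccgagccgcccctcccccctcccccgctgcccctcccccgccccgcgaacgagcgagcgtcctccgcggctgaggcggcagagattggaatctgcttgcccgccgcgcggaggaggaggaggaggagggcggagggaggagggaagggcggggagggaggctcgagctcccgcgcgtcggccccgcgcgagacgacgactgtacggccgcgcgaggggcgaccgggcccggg
Grem1: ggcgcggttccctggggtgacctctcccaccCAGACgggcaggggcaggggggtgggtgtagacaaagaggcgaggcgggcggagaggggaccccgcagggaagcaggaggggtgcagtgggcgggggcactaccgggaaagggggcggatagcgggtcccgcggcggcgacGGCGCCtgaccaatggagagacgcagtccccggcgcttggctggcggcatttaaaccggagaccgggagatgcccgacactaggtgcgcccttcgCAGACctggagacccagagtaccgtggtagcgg

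In these windows Bmp4 had 0 matches to any of the 4 motifs. Bmpr1a had 1 match to GGCGCC, beginning at -198 from the start. Grem1 had 1 match to GGCGCC at -78 and 2 to CAGAC at -219 and 18, with no overlap between motifs. Among all 32851 RefSeq promoters of this length, 3.65% held GTAAACA, 11.9% GGCGCC, 49.6% CAGAC and 16% CTTTGA. GC content was 64% for Bmp4, 79.3% for Bmpr1a and 70.7% for Grem1, against a median of 52.7% over all promoters. A match is a run of letters, not a bound site.

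Of the ligands, Bmp4 showed the widest separation. Bmp4, made in the dermal papilla and in the hair matrix, scored -2.03 and -0.959 in L84, -0.041 and -0.451 in LA and 0.841 and 0.71 in L60, against 0.187, 0.884 and 0.858 in LC. Both L84 arrays were the lowest of all, the LA arrays came next, and L60 lay among the controls. The difference from LC was -2.14 ± 0.403 (SE) in L84, with a 95% interval of -3.17 to -1.1 and an adjusted p of 0.162 (limma). In LA it was -0.889 ± 0.403 (adjusted p = 0.287) and in L60 0.132 ± 0.403 (adjusted p = 1). By mean score L84 was lowest (-1.49 ± 0.755, SD, n = 2), LA next (-0.246 ± 0.29, n = 2), and L60 (0.775 ± 0.0924, n = 2) and LC (0.643 ± 0.395, n = 3) highest, without differing from each other beyond their spread. Between the arrays high in 18S, L84 1 minus LC 1 was -2.21, and among the other arrays L84 2 minus the mean of LC 2 and LC 3 was -1.83. For Bmp4, LA 1 minus LC 1 was -0.228, and LA 2 minus the mean of LC 2 and LC 3 was -1.32.

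Bmp2, a close relative of Bmp4 in sequence, gave no steady picture. It scored 2.26 and -0.662 in L84, -0.222 and -0.981 in L60 and -0.354 and -0.896 in LA, against 0.716, 0.109 and 0.031 in LC. The highest array, L84 1, belonged to the same line as an array below all controls, and both L60 and both LA arrays lay below LC. Differences from LC were -0.886 in L60, 0.513 in L84 and -0.91 in LA, each ± 0.911 (SE), with 95% intervals of -3.23 to 1.46, -1.83 to 2.85 and -3.25 to 1.43. Without L84 1 the sign for Bmp2 in L84 turned, to -0.947.

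Bmp7, a ligand of another BMP subgroup, split the controls themselves. The mean of its 3 probe sets was -0.547 and -0.288 in L60, -0.0741 and -0.958 in L84 and 0.815 and -0.894 in LA, against -0.818, 1.34 and 1.42 in LC. LC 1 lay among the low arrays, while LC 2 and LC 3 were the highest of all. All 3 probe sets had this shape, from -1.26 to -0.504 on LC 1 and from 1.32 to 1.48 on LC 2 and LC 3. The differences for Bmp7 were -1.07, -1.16 and -0.688 in L60, L84 and LA, each ± 0.923 (SE). Within the arrays high in 18S, L60 1 and L84 1 minus LC 1 were 0.271 and 0.744. Among the other arrays L60 2 and L84 2 minus the mean of LC 2 and LC 3 were -1.67 and -2.34 for Bmp7. By replicate, LA 1 minus LC 1 was 1.63, and LA 2 minus the mean of LC 2 and LC 3 was -2.28.

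**Figure D2:**
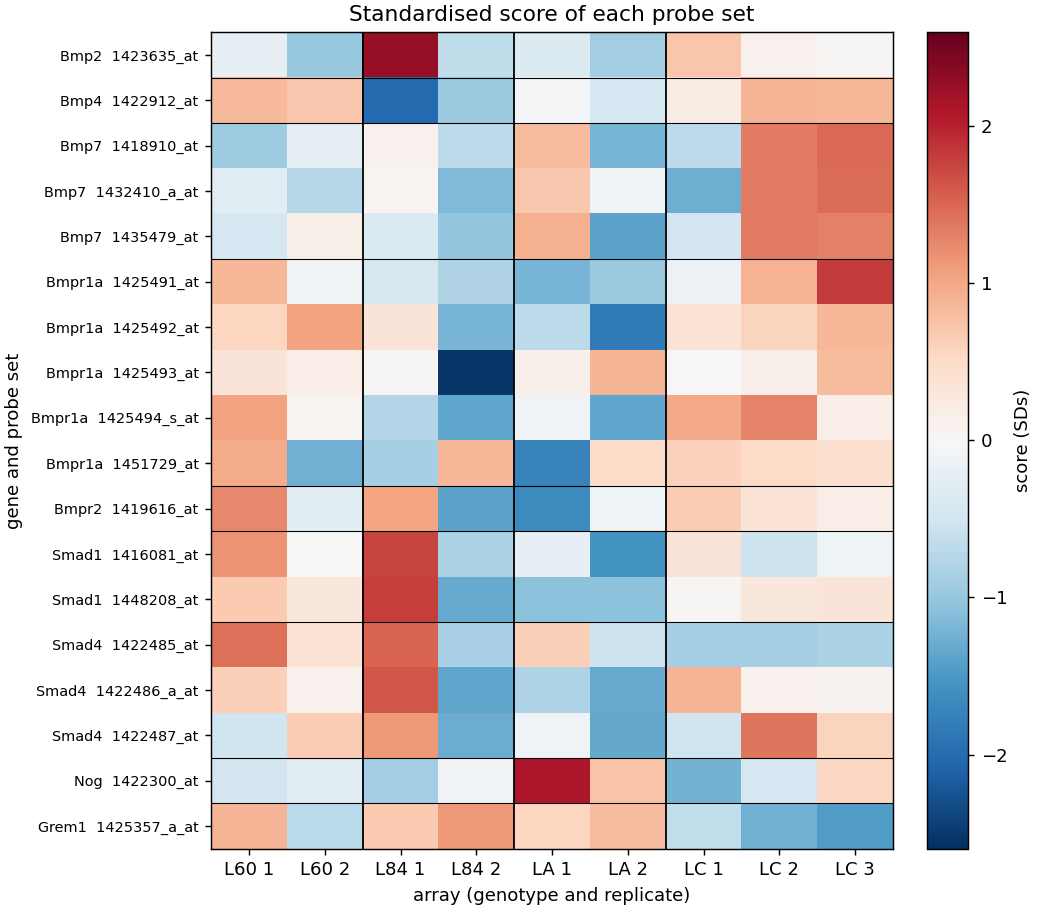
Score in SDs (colour) of each of the 18 probe sets (rows, by gene) on each of the 9 arrays (columns, by genotype). The 3 Bmp7 rows are alike, with LC 1 low and LC 2 and LC 3 high, while the 5 Bmpr1a rows differ among themselves.

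Of the receptors, Bmpr1a was low in L84 and in LA. Bmpr1a, a type I receptor needed for hair shaft differentiation in mice, scored -0.334 and -0.999 in L84, -0.71 and -0.556 in LA and 0.756 and -0.0108 in L60, against 0.36, 0.68 and 0.815 in LC. All L84 and LA arrays were below every LC and L60 array. The differences for Bmpr1a were -1.28 ± 0.326 (SE) in L84 (95% interval -2.12 to -0.448, adjusted p = 0.252) and -1.25 ± 0.326 in LA (-2.09 to -0.414, adjusted p = 0.133). In L60 it was -0.246 ± 0.326 (adjusted p = 1). The means of Bmpr1a were -0.667 ± 0.47 (SD) in L84, -0.633 ± 0.108 in LA and 0.372 ± 0.542 in L60, against 0.618 ± 0.234 in LC, and neither L84 and LA nor L60 and LC differed beyond their spread. Within replicate 1, L84 1 and LA 1 minus LC 1 were -0.694 and -1.07 for Bmpr1a. L84 2 and LA 2 minus the mean of LC 2 and LC 3 were -1.75 and -1.3.

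The 5 probe sets of Bmpr1a did not all follow their mean. In L84 they differed from LC by -1.44 (1425491_at), -1.04 (1425492_at), -1.56 (1425493_at), -1.87 (1425494_s_at) and -0.5 (1451729_at). For 1425493_at the L84 value came from 1 array, at 0.0387 on L84 1 and -2.53 on L84 2. In LA the differences for Bmpr1a were -1.93 (1425491_at), -1.86 (1425492_at), 0.189 (1425493_at), -1.53 (1425494_s_at) and -1.13 (1451729_at). Probe set 1451729_at was low on LA 1 (-1.73) and not on LA 2 (0.485). Of all 18 member probe sets tested singly, 0 were called in L60, 0 in L84 and 0 in LA, against 0%, 0.314% and 1.15% of 20380 probe sets.

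Bmpr2, the type II receptor that activates Bmpr1a, varied more within lines than between them. It scored 1.24 and -0.302 in L60, 1.03 and -1.4 in L84 and -1.66 and -0.111 in LA, against 0.66, 0.364 and 0.181 in LC. Only the LA arrays lay together on 1 side of the controls, below them. The differences for Bmpr2 were 0.067, -0.589 and -1.29 in L60, L84 and LA, each ± 0.952 (SE), with 95% intervals of -2.38 to 2.52, -3.04 to 1.86 and -3.73 to 1.16.

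For both Smads, as for Bmp2 and Bmpr2, the arrays of L84 lay on opposite sides of the controls. Smad1, which BMP receptors phosphorylate, scored 1.78 and -1.06 in L84, 0.92 and 0.146 in L60 and -0.642 and -1.31 in LA, against 0.184, -0.123 and 0.114 in LC. The LC arrays lay close together, and L84 1 was the highest of all arrays and L84 2 below all controls. Differences for Smad1 were 0.475, 0.298 and -1.04 in L60, L84 and LA, each ± 0.877 (SE), and without L84 1 the L84 value turned to -1.12. Both LA arrays lay below LC (adjusted p = 0.519).

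Smad4, the partner shared with TGF-beta signalling, scored 1.42 and -1.16 in L84, 0.514 and 0.382 in L60 and -0.0914 and -1.07 in LA, against -0.161, 0.218 and -0.046 in LC. Both L60 arrays lay above LC, and the L84 arrays lay to either side. The differences for Smad4 were 0.444, 0.122 and -0.583, each ± 0.805 (SE). Its probe sets disagreed: 1422485_at lay 1.74 above LC in L60, 1.18 in L84 and 0.874 in LA. The LC arrays lay close together there, between -0.856 and -0.816. The L84 value came from L84 1 (1.51), as L84 2 (-0.843) lay within that LC range. Probe set 1422486_a_at lay nearer to LC in L60 (0.00266) and L84 (-0.237), and at -1.42 in LA. The third Smad4 probe set, 1422487_at, differed by -0.408, -0.573 and -1.2. Smad1 and Smad4 had the most alike pattern of any pair among the 9 genes, with a root mean square difference of 0.331 over the 9 arrays. The least alike pair was Bmpr2 and Nog, at 1.75. Smad1 and Smad4 are means of several probe sets and Bmpr2 and Nog are read by 1 each, so these values are on different scales.

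Of the antagonists, Grem1 scored high in the lines and Nog in LA. Grem1, gremlin 1, which binds Bmp2 and Bmp4, scored 0.875 and -0.702 in L60, 0.681 and 1.13 in L84 and 0.561 and 0.794 in LA, against -0.635, -1.25 and -1.45 in LC. All L84 and LA arrays were above every control, and in L60 only L60 1 was. The differences for Grem1 were 1.2 ± 0.537 (SE) in L60 (adjusted p = 1), 2.01 ± 0.537 in L84 (95% interval 0.634 to 3.4, adjusted p = 0.274) and 1.79 ± 0.537 in LA (0.408 to 3.17, adjusted p = 0.163). The means of Grem1 were 0.0866 ± 1.12 (SD) in L60, 0.903 ± 0.314 in L84 and 0.677 ± 0.165 in LA, against -1.11 ± 0.424 in LC, and the lines did not differ among themselves beyond their spread. Within replicate 1, L60 1, L84 1 and LA 1 minus LC 1 were 1.51, 1.32 and 1.2 for Grem1. L60 2, L84 2 and LA 2 minus the mean of LC 2 and LC 3 were 0.647, 2.47 and 2.14, the same sign throughout.

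Nog, noggin, scored 2.1 and 0.732 in LA, -0.483 and -0.276 in L60 and -0.877 and -0.0896 in L84, against -1.22, -0.432 and 0.548 in LC. The LA arrays were the highest of all, with LC 3 next, and the L60 and L84 arrays lay within the range of the controls. The difference for Nog was 1.78 ± 0.687 (SE) in LA, with a 95% interval of 0.0163 to 3.55 and an adjusted p of 0.237. LA 1 minus LC 1 was 3.32 for Nog, and LA 2 minus the mean of LC 2 and LC 3 was 0.674. In L60 and L84 the difference was -0.0112 and -0.115, each ± 0.687. Both Nog and Grem1 are read by 1 probe set.

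**Figure D3:**
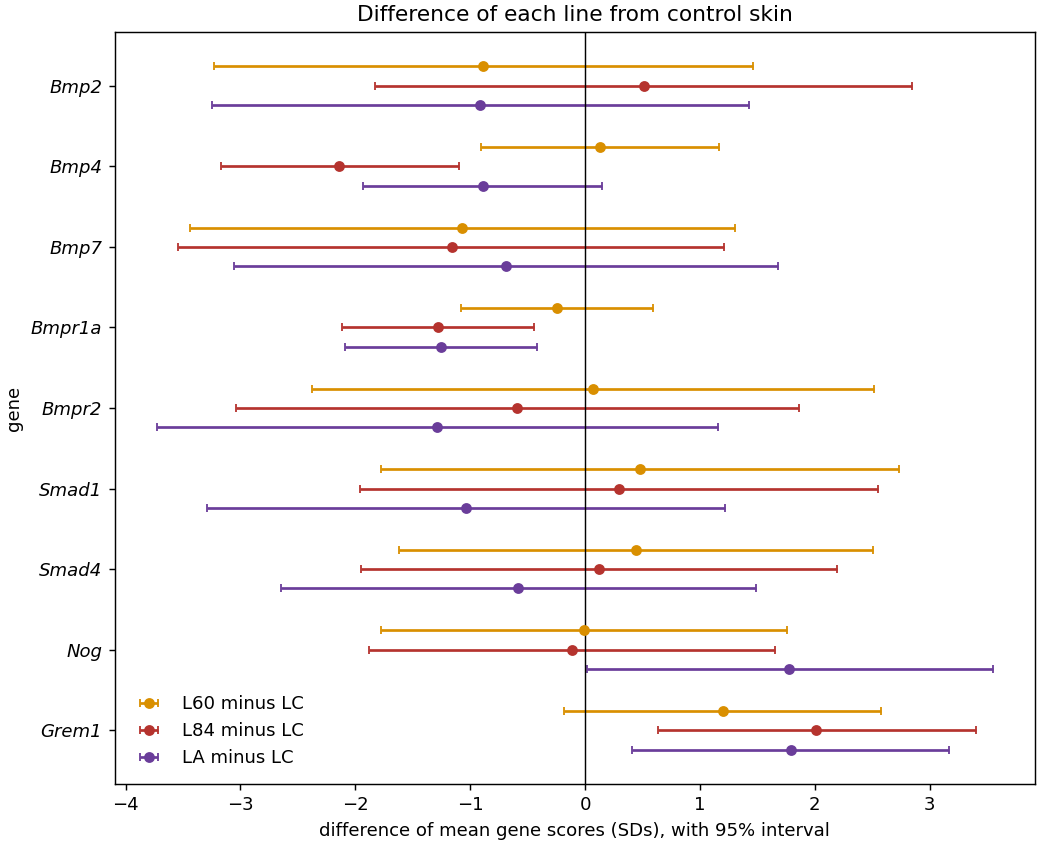
Difference of mean gene score from LC in SDs (horizontal axis) for L60, L84 and LA (colours) and each of the 9 genes (vertical axis), with 95% intervals. Intervals lie off 0 for Bmp4 in L84, for Bmpr1a and Grem1 in L84 and LA, and for Nog in LA, and no difference passed adjustment over all genes.

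Taking the mean of the lines against LC set 6 arrays against 3. Members called numbered 0, where 0.637% of all genes were called, and 3 had an unadjusted p under 0.05, against 13.3% of all genes. These were Grem1 (1.67 ± 0.416, SE, adjusted p = 0.213), Bmpr1a (-0.927 ± 0.252, adjusted p = 0.244) and Bmp4 (-0.964 ± 0.312, adjusted p = 0.309). Smad4 and Smad1 lay nearest to 0, at -0.00565 ± 0.623 and -0.0878 ± 0.679, with 95% intervals of -1.61 to 1.6 and -1.83 to 1.66. Arrays of the lines and of LC overlapped for all 9 genes, while 6.67% of all genes had no overlap. For Grem1 the overlap came from L60 2 (-0.702) and LC 1 (-0.635).

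The lines were also set against each other. Bmp4 was lower in L84 than in L60 by the largest margin, at -2.27 ± 0.442 (SE, adjusted p = 0.308), and Bmpr1a differed there by -1.04 ± 0.357 (adjusted p = 0.556). LA minus L60 was -1.01 ± 0.357 for Bmpr1a (adjusted p = 0.278) and 1.79 ± 0.753 for Nog (adjusted p = 0.333). LA minus L84 was 1.25 ± 0.442 for Bmp4 (adjusted p = 0.445) and 1.9 ± 0.753 for Nog (adjusted p = 0.475). For Bmpr1a, LA and L84 differed by 0.0338, with a 95% interval of -0.883 to 0.95. No member was called in these 3 comparisons, where 0.113% of genes were called in L84 against L60, 0.629% in LA against L60 and 0.0161% in LA against L84. An unadjusted p under 0.05 was reached by 2, 1 and 1 members, against 8.03%, 16.2% and 10.6% of all genes.

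Other genes of the pathway were read from a list of 56, of which 46 had a probe set of their own. Only Smad6 and Bambi passed the test against LC. Smad6, an inhibitory Smad that BMP signals themselves switch on, scored -0.76 and -0.773 in L84, -0.998 and -1.07 in LA and -0.031 and -0.0134 in L60, against 0.901, 1.16 and 1.59 in LC. No line array of Smad6 reached the controls. It fell by 1.98 ± 0.203 (SE) in L84 (adjusted p = 0.0398) and by 2.25 ± 0.203 in LA (adjusted p = 0.0169), and differed by -1.24 ± 0.203 in L60 (adjusted p = 0.531). In L84 the Smad6 call was lost without LC 2 (adjusted p = 0.202) and without any single line array (0.0801 to 0.136). In LA it was lost without LC 2 (adjusted p = 0.0964), L60 1 or L60 2 (0.0582 each), LA 1 (0.0597) or LA 2 (0.109).

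Bambi, a decoy receptor without a kinase, scored -0.936 and -0.966 in L84, -1.13 and -1.09 in LA and 0.696 and 0.384 in L60, against 0.956, 1.13 and 0.958 in LC. The L84 and LA arrays lay far below the others, and L60 just below the controls. Bambi fell by 1.96 ± 0.107 (SE) in L84 (adjusted p = 0.00797) and by 2.12 ± 0.107 in LA (adjusted p = 0.00472), and differed by -0.473 ± 0.107 in L60 (adjusted p = 0.723). In L84 the Bambi call was lost without LC 2, LC 3 or L84 1 (adjusted p = 0.0552, 0.0541 and 0.0564), and in LA it held without any single array. With the replicate number as a block, adjusted p in L84 and LA was 0.201 and 0.131 for Smad6 and 0.249 and 0.155 for Bambi, and with moderated variance it was 0.3 and 0.115 for each gene, so none of these calls held there.

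By list, 1 of 6 other Smads and 1 of 13 other antagonists and decoys was called, both lower, in each of L84 and LA and in the mean of the lines. Among all genes 0.403%, 0.984% and 0.46% were called lower there. None of 9 other ligands, 7 other receptors and co-receptors, 7 intracellular brakes and processing enzymes and 4 Id genes was called. The median difference of the other antagonists and decoys was 0.393 in L60, 0.41 in L84 and 0.601 in LA. Of these 13 genes, 9 lay higher and 4 lower in L84, and 11 and 2 in LA. Among all genes 50.1% and 56.1% lay higher. Bambi was the largest fall in both lines. The largest rises were Fst in L84 (1.97 ± 0.727, SE) and Nbl1 in LA (2.38 ± 0.444, adjusted p = 0.0769, limma), neither called. The other Smads had medians of -0.855, -1.09 and -1.21. Other ligands had medians of -0.226, -1.15 and 0.204.

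Within lists that held no called gene, the extremes were as follows. Among ligands Gdf2, a ligand of endothelial receptors, differed by -2.15 ± 0.551 (SE) in L84, Bmp8a by -1.51 ± 0.554 in LA and Bmp10 by -1.13 ± 0.654 in L60, while Bmp15 was at the other end (0.28, 0.329 and 1.43 in L60, L84 and LA). Among receptors Bmpr1b, the other BMP type I receptor of its subgroup, differed by 2.24 ± 0.566 in LA (adjusted p = 0.129) and 0.767 ± 0.566 in L84, and Acvr2b by 1.25 ± 0.938 in L60. The lowest receptors were Acvr2a in L60 and LA (-0.552 and -0.813) and Acvrl1 in L84 (-0.606). Of processing enzymes, Pcsk6, a protease that cleaves precursors of this ligand family, differed by -1.68 ± 0.744 in L84 and -1.61 ± 0.744 in LA, and Furin, another such protease, by -1.49 ± 0.868 in L60. The highest in that list were the repressor Ski in L60 (1.04), Furin in L84 (0.16) and Bmp1 in LA (0.739). In L60, where no gene was called, Smad7 (-1.26) and Smad2 (0.53) bounded the other Smads, and Chrdl2 (-0.595) and Fstl1 (0.896) the antagonists. Smad7 was low in the other lines too, by -1.99 ± 0.552 in L84 and -1.78 ± 0.552 in LA, without a call. Id genes, direct BMP targets, had medians of -0.08, -0.998 and -1.72. Id3 stood at 0.617 in L60 and -1.52 in L84, Id2 at -0.644 in L60 and Id1 at -1.97 in LA. Id3 also differed by -1.53 ± 0.304 in LA, and Id4 by -1.43 ± 0.439 in L84 and -1.92 ± 0.439 in LA, none called. Id2 differed least in these lines, by -0.139 in L84 and -0.62 in LA.

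**Figure D4:**
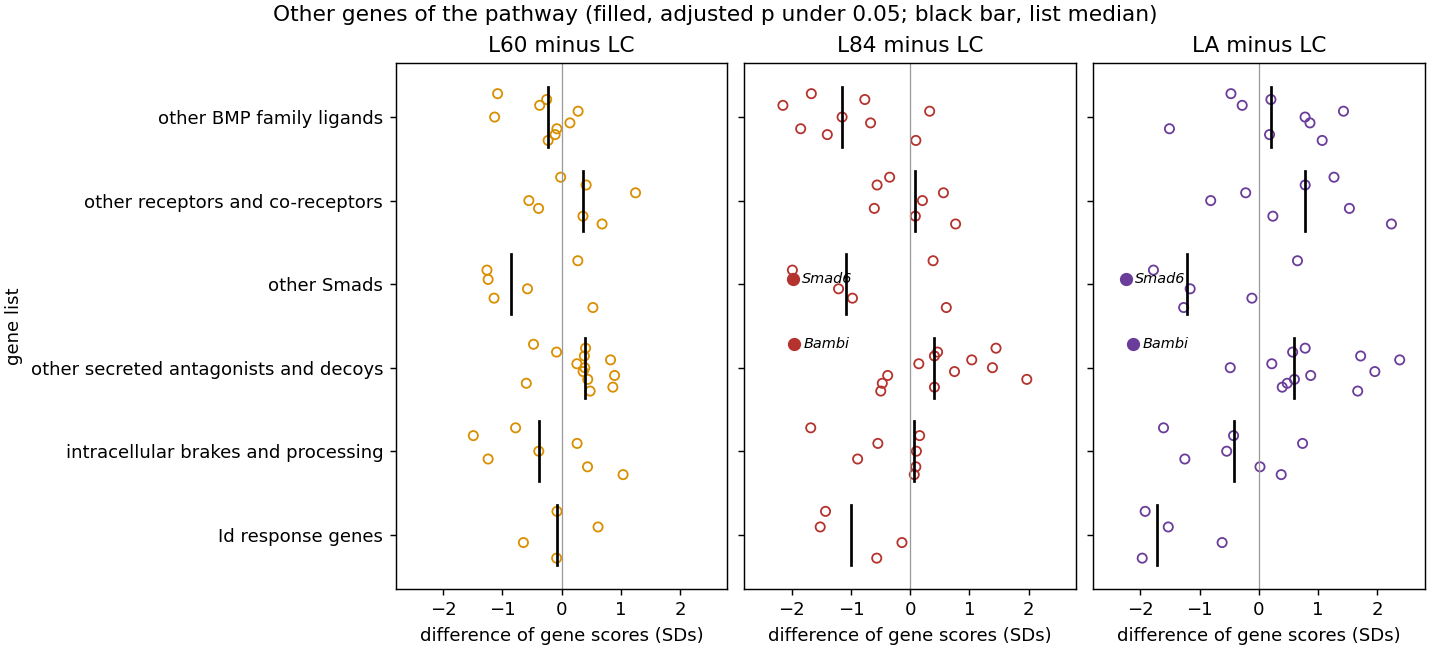
Difference of gene score from LC in SDs (horizontal axis) for 46 other pathway genes, by list (vertical axis) and line (panels L60, L84 and LA). Filled points had an adjusted p under 0.05, black bars are list medians, and the filled points are Smad6 and Bambi in L84 and LA.

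Markers of skin cell types were read beside these genes, since in whole skin fewer cells of a type and less RNA per cell cannot be told apart. Hair shaft keratins averaged -0.915 to -0.896 on the L84 arrays, -1 to -0.878 in LA and 0.129 to 0.179 in L60, against 1.04 to 1.25 in LC. In L84 and in LA 9 of 12 were called lower, where 0.403% and 0.984% of all genes were. Hair matrix regulators averaged -0.892 to -0.691 in L84, -0.593 to -0.389 in LA and 0.259 to 0.323 in L60, against 0.175 to 0.952 in LC, and 3 of 10 were called lower in L84 and 3 in LA, against the same shares of all genes. With moderated variance 0 of all genes were called, and with the replicate number as a block 1 gene was called lower in L84 and 0 in LA. These lists were low on the same arrays as Bmp4, Bmpr1a, Smad6 and Bambi, and their part in those differences was not tested. Basal keratinocyte markers averaged 0.365 to 1.39 in L84, 0.0139 to 0.568 in LA and -0.135 to 0.0129 in L60, against -0.953 to -0.612 in LC. Of these, 2 of 9 were called higher in L84 and 2 in LA, where 0.161% and 0.815% of all genes were.

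Melanocyte markers were called lower for 2 of 6 in L84 and 3 of 6 in LA, where 0.403% and 0.984% of all genes were. Of 8 markers of differentiated epidermis 1 was called higher in LA, where 0.815% of all genes were. That list did not rise as a whole: in LA 3 of its markers lay higher and 5 lower, with a median difference of -1.14. No marker of endothelium, adipocytes, skeletal muscle, smooth muscle or macrophages was called in a line against LC.

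Lists of the dermis did not follow the lines so evenly. Dermal papilla markers averaged -0.567 to 0.11 in L84, -0.0912 to 0.224 in LA and -0.0145 to 0.426 in L60, against -0.347 to 0.292 in LC, with 0 of 12 called in any line. Fibroblast markers averaged -1.67 on L84 1 and 0.889 on L84 2, 0.353 to 0.705 in LA and -0.134 to 0.674 in L60, against -0.391 to -0.0952 in LC. Grem1, a gene of connective tissue cells, scored 0.681 on L84 1 and 1.13 on L84 2, and the part of these cells in its difference was not tested. On L84 1, the array highest for Bmp2, Smad1 and Smad4, skeletal muscle markers averaged 1.54 and macrophage markers -1.31, against 0.093 and 0.658 on L84 2. Whether tissue make-up bears on the gap between the L84 arrays was not tested.

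**Figure D5:**
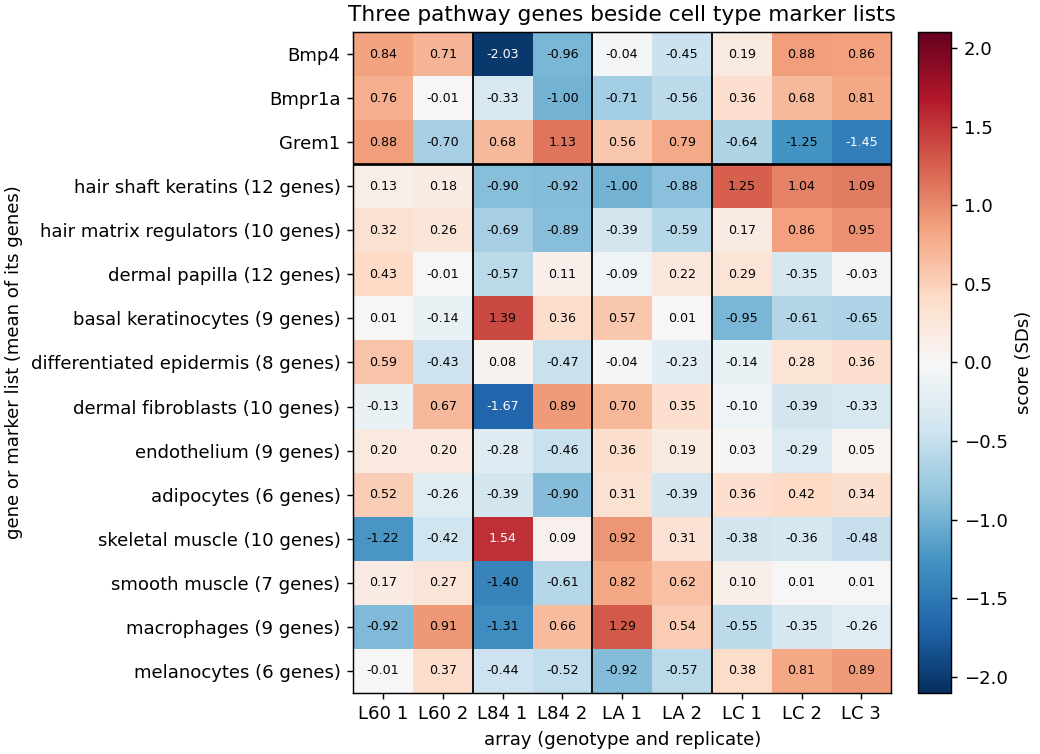
Score in SDs (colour and number) of Bmp4, Bmpr1a and Grem1 (top rows) and mean score of 12 cell type marker lists (rows below) on each array (columns, by genotype). Hair shaft and hair matrix lists are low on the L84 and LA arrays, where Bmp4 and Bmpr1a are low and Grem1 is high.

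The genes with the pattern most like Bmp4 and Bmpr1a were sought over the 9 arrays by the root mean square difference of scores, smaller being more alike. For Bmp4 they were Tagln2 (0.293), Dlx4 (0.319), Cap1 (0.354), Ctsc (0.372) and Cep250 (0.372), where the median over all genes was 1.26. For Bmpr1a they were Abcf1 (0.224), Pa2g4 (0.272), Hnrnpab (0.272), Gtf2h4 (0.274) and Elp2 (0.275), where the median over all genes was 1.08. All of these values come from the same 9 arrays.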

How the data were processed

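Total RNA from 30 mg of whole skin was hybridised to 9 Affymetrix arrays, per the labels' protocols. The authors deposited a score for each of 22690 probe sets, already standardised to mean 0 and SD 1 over the arrays (largest departures 1.86e-07 and 7.54e-08). Per the submitters' processing notes the tool was RMA, without a version, and no file header gives further steps. Signal over background cannot be read from a score. Tied values occurred in 44.3% of probe sets. Group membership came from sample titles.

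Gene scores were means of the probe sets naming that gene alone, by the platform annotation and GRCm38.p6 gene records. Of the probe sets 20380 named 1 gene, 691 several and 1555 none, and 64 were controls. Means of several probe sets have SDs below 1, so genes with 1 and with more probe sets are on different scales. In L84 against LC the SE of Bmpr1a was 0.326 for the gene and 0.589 to 1.03 for its single probe sets. Sizes of differences and root mean square differences are therefore not comparable between such genes. A linear model of genotype means (limma 3.58.1, R 4.3.3) with 5 residual degrees of freedom was run over all genes, and once over all probe sets. Variance was not moderated. Standardising fixes the total variance of each probe set, but the residual variance within genotypes still differed between genes. In L84 against LC the SE was 0.107 for Bambi and 1.12 for Smad9. The calls above rest on this choice, since moderated variance called 0 genes in every comparison. The step was tested only on simulated independent noise with large shifts planted in L84. That noise lacks the correlation between some of these arrays, so the test does not show how the step performs on such data. Promoter sequences are RefSeq's (GRCm38.p6).

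The members, lists, tests and alternatives were chosen with earlier results of these data known. Values of Smad7, Fst, Nbl1, Id2, Id3 and Id4 beyond the naming rule given next were added with these results known. Named were all members, pathway genes called in any line or in the mean of lines, otherwise the largest rise and fall of each list and line, and the 5 genes most like each of the 2 members with the smallest p over the genotypes. Alternatives tried were leaving out each array, 3 arrays high in 18S or the 2 widest arrays, array weights, a block for the replicate number, fits to the compared arrays alone, moderated variance (plain or robust), array medians set to 0, single probe sets and 1 probe set per gene. A block of replicate 1 against the other arrays (4 residual degrees of freedom) was added after seeing the data, since Xist scored low on replicate 1 throughout. Filters on dim probe sets need a level and were not used.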

Additional observations from a re-analysis of the deposited data

How the results depend on the processing

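No member was called under any alternative: over 675 refits of 36 member differences the smallest adjusted p was 0.0754 (Bmp4 in L84, limma), 634 kept the sign and 41 turned it. The differences of Grem1 in every line, of Bmp4 and Bmpr1a in L84 and LA and of Nog in LA kept their sign throughout, with ranges of 0.409 to 2.47 for Grem1, -2.67 to -0.684 for Bmp4, -1.93 to -0.952 for Bmpr1a and 1.1 to 2.47 for Nog. A kept sign was not particular to these genes, as 22 of the 36 differences kept sign and call under every alternative. Among the others were Bmp2 in L60 and LA, Bmp7 in L60 and L84 and Smad1 in L60 and LA. Many of the refits could not turn a sign. Moderated variance, the compared arrays alone and leaving out an array of another line change the SE of a line's difference, not its value. With 1 probe set per gene, members read by 1 probe set also stay as they were. The count of kept signs is therefore no measure of stability. The number of arrays limits the precision, and scores hide signal over background.

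Values with a turned sign were all of differences without a call, and the cause was not tested. For Bmp2 in L84 they were -0.731 without LC 1, L60 1 and L84 1 and -0.947 without L84 1 and LA 2, and single arrays left out gave -0.947 to 1.97, and -0.914 to 0.059 for the mean of lines. For Bmp4 in L60 they were -0.0281 with array weights and -0.161 without the arrays high in 18S, and -0.0955 to 0.253 without single arrays. For Bmp7 in LA it was 0.167 without the widest arrays and -1.54 to 0.167 without single arrays, and for Bmpr1a in L60 -0.629 to 0.138. For Bmpr2 in L60 they were -0.0431 with the replicate block and -0.574 without the arrays high in 18S, and -0.703 to 0.837 without single arrays, with -1.8 to 0.624 in L84. For Smad1 in L84 they were -1.06 and -1.12 without the arrays high in 18S or the widest, and -1.12 to 1.72 without single arrays, and for the mean of lines 0.157 with 1 probe set per gene and -0.562 to 0.386. For Smad4 in L84 they were -1.25 and -1.17 in the same order, and -1.17 to 1.41 without single arrays. With 1 probe set per gene Smad4 stood at 0.874 in LA and 1.26 for the mean of lines, which ran -0.435 to 0.424 without single arrays. For Nog the replicate block gave 0.447 in L60 and 0.343 in L84, the widest arrays left out 0.279 in L84, and single arrays left out -0.437 to 0.447 and -0.541 to 0.343.

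Other pathway genes with a turned sign were Acvr2a in L60 (0.255 with 1 probe set per gene and 0.0414 without the arrays high in 18S), Smad2 in L60 (-0.304 without the arrays high in 18S), Furin in L84 (-0.166 without the arrays high in 18S, -0.199 without the widest, -0.199 to 0.52 without single arrays), Bmp15 in L84 (-0.516 to 1.17) and Bmpr1b in L84 (-0.014 to 1.55). Smad6 stayed called in 4 of 19 refits in L84 and 8 of 19 in LA, with adjusted p from 0.0309 to 0.324 and from 0.0113 to 0.187, and Bambi in 9 and 14 of 19, from 0.0065 to 0.324 and from 0.00446 to 0.157. Neither Smad6 nor Bambi was called with moderated variance or with the block of replicate numbers.

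Genes called over the whole array numbered 0, 70, 223, 79, 14, 78 and 2 in L60, L84, LA and the mean of lines against LC, then L84 against L60, LA against L60 and LA against L84. With the replicate block they numbered 1, 3, 1, 1, 0, 1 and 1; LC 3 has no partner and drops out there. Over all genes, differences of replicate 1 minus replicate 2 in the groups correlated at -0.0833 to 0.345, with 3 of 6 over 0.1, so the data do not show pairing throughout, and no label states it, while Xist was low on replicate 1 of every genotype. With replicate 1 against all other arrays as a block, chosen after seeing the data and keeping LC 3, there were 33 in L84 and 45 for the mean of lines against LC, 3 in L84 against L60 and 33 in LA against L60, and no member was called. The same replicate block gave -0.046 for Bmpr2 in L60, -0.00714 for Smad4 in L84 and 0.0401 for Nog in L60, each with a turned sign, and ended the Smad6 call in L84 (adjusted p = 0.0929) and not those of Smad6 in LA (0.0441) or Bambi in L84 and LA (0.0397 and 0.0236). With only the arrays compared there were 4, 19 and 38 against LC (the mean of lines uses all arrays) and 0, 3 and 0 between lines. Moderated variance called 0 in every comparison, with and without the robust fit. Array weights gave 9, 19 and 235 in L60, L84 and the mean of lines, and 4, 42 and 0 between lines. Array medians at 0 gave 7 in L84 against L60, and single probe sets or 1 probe set per gene 0 in LA against L84. Without the arrays high in 18S there were 11, 12, 3 and 15 against LC, and 14 and 10 in LA against L60 and L84. Without the widest arrays there were 4, 45 and 33 in L60, LA and the mean of lines, and 40, 23 and 23 between lines. Leaving out single arrays gave 0 to 5 in L60 (5 without L60 2), 5 (without LC 2) to 129 (without L84 2) in L84, 40 (without LA 2) to 306 (without L84 1 or L84 2) in LA and 13 (without LC 2) to 110 (without L84 1) for the mean of lines, and 3 to 15, 4 to 112 and 0 to 131 between lines. In L84 every array but LC 1 moved the count by over 1.5 times, in LA every array but L84 1, L84 2 and LA 1, and for the mean of lines every array but L84 1 and L84 2.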
